A study of Mus musculus with 8 samples.

Results

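Pou5f1, Sox2, Nanog, Esrrb, Tfcp2l1, Klf2, Klf4, Klf5, Zfp42 and Tbx3, the core and naive pluripotency factors of the mouse, were followed through 8 libraries of poly(A) RNA from mouse cells of the C57BL/6 strain. They are 10 of the 23483 genes in the deposited count table, chosen by name, and for each the RefSeq transcript row with the highest total was used. The knock-down group (2 libraries) was Sca1 cells that carried a lentiviral shRNA against Set7, a lysine methyltransferase encoded by Setd7. The non-target control group (NTC, 2 libraries) was Sca1 cells that carried a lentiviral shRNA with no target. The untreated Sca1 group (2 libraries) carried no construct, and the mESC group (2 libraries) was undifferentiated mouse embryonic stem cells kept in medium with LIF, the cytokine that maintains them. Per the labels' protocols, Sca1 cells were obtained by withdrawing LIF on gelatin, sorting with magnetic beads for the surface protein Sca1 and growing the sorted cells without LIF. All groups were labelled with 5.5 mM glucose. Knock-down and NTC cells had also been selected with puromycin, which the untreated Sca1 cells had not, so construct, virus and selection cannot be told apart in a comparison with untreated cells. The knock-down rests on 1 shRNA, whose target in Setd7 is given in the labels' protocols.

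shRNA target in Setd7: ccgtgttcagagataccaaat

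Pluripotent mouse cells are held in their state by a network of transcription factors that bind together and sustain each other's genes. Pou5f1 (Oct4), Sox2 and Nanog form the core, which is active in naive cells, the state of the early epiblast, and in part in the primed cells that follow implantation. Klf2, Klf4, Klf5, Esrrb, Tfcp2l1, Tbx3 and Zfp42 mark or stabilise the naive state, several of them as targets of LIF and STAT3 signalling, and their genes are usually silenced earlier than Pou5f1 when stem cells leave that state.

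Counts summed over genes ranged between 2507938 and 5080266 per library. Levels are CPM (library-scaled counts, with TMM factors), and comparisons are log2 fold changes with their standard error (SE) from edgeR's quasi-likelihood test with Benjamini-Hochberg adjustment over 13966 genes, called at an adjusted p of 0.05. All 10 factors passed the filter on low counts. Library codes in the labels' descriptions (12, 34 and 56) divide the groups: knock-down and NTC each hold codes 12 and 34, and untreated Sca1 and mESC each hold codes 34 and 56. The labels do not say what a code is, nor whether the replicates came from different cultures; the p-values therefore cover only library-to-library spread, which may be technical. The code 56 libraries, which are replicate 2 of the untreated Sca1 and of the mESC group, stood apart: the transcript NR_046233 held 8.97% and 8.63% of their counts, against 0.289% to 1.17% in the other libraries. Setd7 had 14.0 and 10.8 CPM in knock-down libraries, 60.7 and 66.6 CPM in NTC, 76.3 and 66.3 CPM in untreated Sca1 and 11.2 and 16.5 CPM in mESC libraries, which matches the knock-down labels. Ly6a, which encodes Sca1, was low throughout, with 9.81 and 12.5 CPM in knock-down, 5.44 and 6.46 CPM in NTC, 13.0 and 4.42 CPM in untreated Sca1 and 9.85 and 5.72 CPM in mESC libraries, so the sort marker's RNA did not separate the sorted groups from mESC.

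Promoter windows of 250 bases before a transcript's start were taken from RefSeq (GRCm38.p6), which gave 11 windows for 8 of the 10 factors, and Klf5 and Tbx3 had no entry. Shown are 1 core window with a joint Oct-Sox motif (Nanog), the windows of Sox2 and Klf2, the 2 factors that rose in the knock-down, and those of Klf4 and Tfcp2l1, which were among the largest falls between stem cells and Sca1 cells. Capitals mark every match to the 6 motifs searched on both strands: the octamer core ATGCAAA, the Oct-Sox composite (CATTGT, any base, then the octamer, which it thus contains), the CACC box CCNCACCC, the GC box GGGCGGGG, the estrogen-related receptor (ERR) site AAGGTCA and the STAT3 site TTCCNGGAA.

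Nanog, chr6:122707315-122707564, plus strand: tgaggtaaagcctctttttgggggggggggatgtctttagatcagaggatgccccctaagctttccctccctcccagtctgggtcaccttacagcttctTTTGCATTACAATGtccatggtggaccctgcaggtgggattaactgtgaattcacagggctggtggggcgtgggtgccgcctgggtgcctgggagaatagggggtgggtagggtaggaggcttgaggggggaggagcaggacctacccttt
Sox2, chr3:34649745-34649994, plus strand: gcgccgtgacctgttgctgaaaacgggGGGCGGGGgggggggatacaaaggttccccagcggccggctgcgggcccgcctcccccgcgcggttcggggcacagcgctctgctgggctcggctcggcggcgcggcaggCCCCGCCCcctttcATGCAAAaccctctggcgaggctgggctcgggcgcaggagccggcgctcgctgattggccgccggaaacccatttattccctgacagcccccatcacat
Klf2, chr8:72318812-72319061, plus strand: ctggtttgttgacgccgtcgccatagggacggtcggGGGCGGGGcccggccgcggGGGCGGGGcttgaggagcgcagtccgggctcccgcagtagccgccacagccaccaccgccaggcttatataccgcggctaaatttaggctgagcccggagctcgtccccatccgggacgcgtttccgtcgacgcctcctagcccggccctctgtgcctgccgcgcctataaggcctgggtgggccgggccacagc
Klf4, chr4:55532476-55532725, minus strand: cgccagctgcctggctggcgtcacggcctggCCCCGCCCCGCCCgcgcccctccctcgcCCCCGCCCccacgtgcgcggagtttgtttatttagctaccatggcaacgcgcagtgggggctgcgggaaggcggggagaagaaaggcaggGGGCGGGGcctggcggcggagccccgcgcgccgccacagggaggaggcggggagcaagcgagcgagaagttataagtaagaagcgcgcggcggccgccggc
Tfcp2l1, chr1:118627695-118627944, plus strand: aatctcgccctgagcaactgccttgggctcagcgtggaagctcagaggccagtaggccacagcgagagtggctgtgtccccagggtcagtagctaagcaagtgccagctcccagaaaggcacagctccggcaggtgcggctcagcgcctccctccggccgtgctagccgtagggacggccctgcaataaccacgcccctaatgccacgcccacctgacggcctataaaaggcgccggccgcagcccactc

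The Nanog window holds the Oct-Sox composite on the minus strand, at bases -151 to -138 before the start, and this motif was found in 2 of 32851 windows (0.00609%), both of them overlapping windows of Nanog. The octamer core was in windows of Nanog, Sox2 and Zfp42, and in 4.12% of all windows. The GC box was in windows of Klf2, Klf4, Pou5f1, Sox2 and Zfp42 and in 16.1% of all windows, and the CACC box, which KLF proteins can bind, in windows of Esrrb and Zfp42 and in 14.9% of all windows. The ERR site (4.08% of all windows) and the STAT3 site (0.913%) were in no window of these factors, and the Tfcp2l1 window held none of the 6 motifs. Matches are descriptions of the letters and were not tested against the expression values.

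The levels split the factors in the stem cells themselves. Set per kilobase of transcript, so that genes can be compared, Pou5f1 was the highest of the 10 in every group, at 500 ± 16.6 CPM per kb in knock-down, 400.1 ± 3.34 in NTC, 477 ± 25.5 in untreated Sca1 and 521 ± 139 in mESC libraries (mean ± SD, n = 2). Klf4 was the lowest in every group, at 10.4 ± 0.430 CPM per kb in knock-down, 13.5 ± 0.510 in NTC, 16.3 ± 6.29 in untreated Sca1 and 46.9 ± 5.50 in mESC libraries. Esrrb stood 6th in knock-down, NTC and untreated Sca1 libraries and 4th in mESC libraries, while Nanog stood 5th in the Sca1 groups and 6th in mESC libraries.

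**Figure D1:**
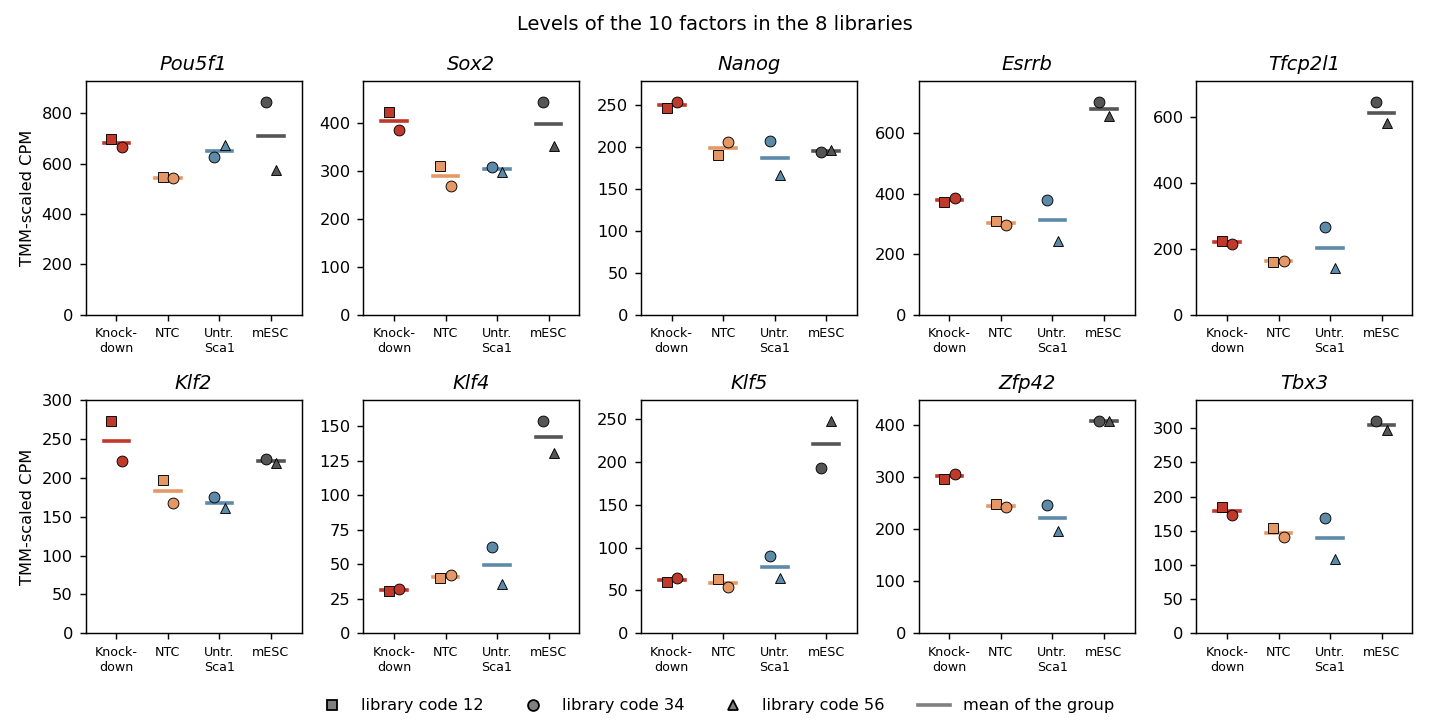
CPM of each factor (vertical axis, from 0) in the 2 libraries of the knock-down, NTC, untreated Sca1 and mESC groups; the shape gives the library code and the bar the group mean. Esrrb, Tfcp2l1, Klf4, Klf5, Zfp42 and Tbx3 are highest in both mESC libraries, whereas the mean of Sox2, Nanog and Klf2 is highest in knock-down libraries and the mESC libraries of Pou5f1 lie apart, at 844 and 575 CPM.

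Between stem cells and untreated Sca1 cells, 8 of the 10 factors fell and 0 rose (16.8% of all tested genes fell and 18.7% rose). The same 8 did not overlap between the groups (31.5% of all genes were lower in this way), and the median log2 fold change of all 10 factors was -0.999, against -0.01 over all genes. The fall was uneven: Esrrb, Tfcp2l1, Klf4, Klf5, Zfp42 and Tbx3 changed by -0.88 to -1.58 on the log2 scale, Sox2 and Klf2 by -0.39 and -0.40, and the core genes Pou5f1 and Nanog did not pass the test. In bulk RNA, fewer cells that express a gene and less RNA per cell cannot be told apart.

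Pou5f1, a POU factor required for pluripotency, had 625 and 674 CPM in untreated Sca1 libraries and 844 and 575 CPM in mESC libraries. The mESC libraries lay above and below both Sca1 libraries, and the log2 fold change of -0.13 ± 0.15 did not pass (edgeR adjusted p = 0.540). Without mESC replicate 2 the same change was -0.38 ± 0.11 and passed (edgeR adjusted p = 0.0146), and within code 34 it was -0.43, within code 56 it was 0.23. Nanog, a homeodomain factor whose level varies between cells of 1 culture, had 207 and 166 CPM in untreated Sca1 and 193 and 196 CPM in mESC libraries. The groups overlapped, and its log2 fold change of -0.06 ± 0.12 did not pass (edgeR adjusted p = 0.763). Sox2, the partner of Pou5f1 on joint DNA sites, had 308 and 299 CPM in untreated Sca1 and 444 and 353 CPM in mESC libraries. Both Sca1 libraries lay below both mESC libraries, a log2 fold change of -0.39 ± 0.13 (edgeR adjusted p = 0.0239). The Sox2 call was lost without mESC replicate 1, without either untreated Sca1 library, without knock-down replicate 1, with library totals alone as scaling and in a fit of the 2 groups alone, with edgeR or DESeq2 adjusted p-values up to 0.159 over 17 alternatives.

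Esrrb and Tfcp2l1 showed wider gaps. Esrrb, an orphan nuclear receptor that can stand in for Nanog in sustaining self-renewal, had 381 and 244 CPM in untreated Sca1 and 703 and 658 CPM in mESC libraries. Tfcp2l1, a factor that LIF and STAT3 signalling induces, had 267 and 140 CPM in untreated Sca1 and 644 and 581 CPM in mESC libraries. Both genes were lower in each Sca1 library than in any mESC library, with log2 fold changes of -1.12 ± 0.15 for Esrrb (edgeR adjusted p = 2.34e-05) and -1.58 ± 0.22 for Tfcp2l1 (edgeR adjusted p = 0.000239).

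Of the Krüppel-like factors, Klf4, also a reprogramming factor, had 62.7 and 35.8 CPM in untreated Sca1 and 154 and 130.3 CPM in mESC libraries. Klf5, needed for the inner cell mass and trophectoderm of the embryo, had 90.2 and 64.1 CPM in untreated Sca1 and 193 and 248 CPM in mESC libraries. Klf2, which acts with Klf4 and Klf5 and is sustained by MEK inhibition, had 175 and 161 CPM in untreated Sca1 and 224 and 219 CPM in mESC libraries. None of the 3 overlapped between the groups, yet the sizes differed: Klf4 changed by -1.50 ± 0.18 (edgeR adjusted p = 6.69e-06), Klf5 by -1.50 ± 0.16 (1.34e-06) and Klf2 by -0.40 ± 0.13 (0.0237). The Klf2 call was lost without untreated Sca1 replicate 2 (log2 -0.33 ± 0.15, edgeR adjusted p = 0.125), with library totals alone as scaling and in a fit of the 2 groups alone.

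Zfp42 (Rex1), a widely used reporter of the naive state, had 245 and 195 CPM in untreated Sca1 and 407 and 407 CPM in mESC libraries. Tbx3, a T-box factor of the naive network that also acts in early endoderm, had 169 and 109 CPM in untreated Sca1 and 311 and 298 CPM in mESC libraries. Both were lower in every Sca1 library, by -0.88 ± 0.12 for Zfp42 (edgeR adjusted p = 2.09e-05) and -1.12 ± 0.15 for Tbx3 (2.20e-05). The calls of Esrrb, Tfcp2l1, Klf4, Klf5, Zfp42 and Tbx3 held in all 17 alternatives run.

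The 2 untreated Sca1 libraries differed from each other in these genes. Replicate 2, of code 56, was below replicate 1 for each factor except Pou5f1, with Tfcp2l1 at 140 against 267 CPM. The gap to mESC was accordingly wider within code 56 than within code 34 for the 6 factors that held: -2.04 against -1.27 for Tfcp2l1, -1.85 against -1.29 for Klf4, -1.94 against -1.09 for Klf5, -1.43 against -0.88 for Esrrb, -1.44 against -0.88 for Tbx3 and -1.06 against -0.73 for Zfp42. Each is 1 library against 1, and the part of the code or of NR_046233 in these gaps was not tested. Without untreated Sca1 replicate 2, Tfcp2l1 was -1.19 ± 0.13 and Klf4 was -1.17 ± 0.17.

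**Figure D2:**
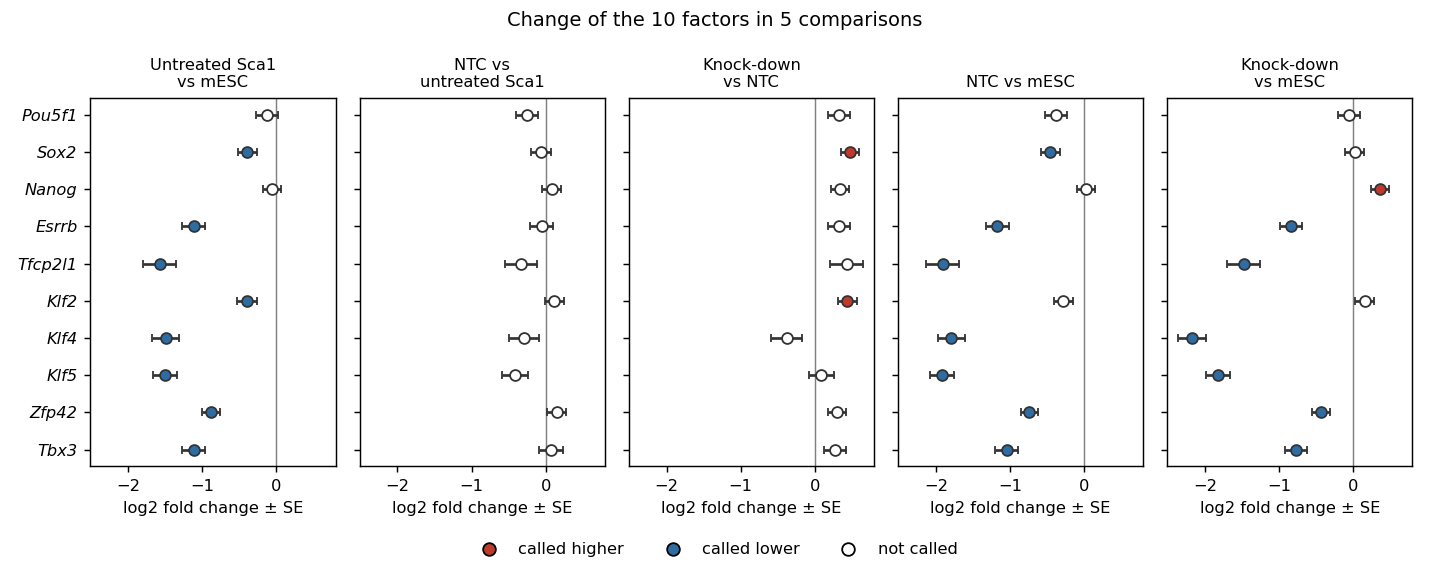
Log2 fold change (horizontal axis) with its SE for each factor in 5 comparisons, the first-named group over the second; filled points passed an adjusted p of 0.05. Klf4, Klf5 and Tfcp2l1 are the 3 lowest factors in untreated Sca1, NTC and knock-down cells against mESC, and no point is filled in NTC against untreated Sca1 cells.

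NTC cells, which differ from untreated Sca1 cells in construct, virus and selection together, showed no factor past the test. In this comparison 0 of 10 were called with edgeR (4.99% of all genes were) and 0 with DESeq2, 1 (Klf5) had an unadjusted p under 0.05, and the median log2 fold change was -0.06, against 0.01 over all genes. Klf5 had 63.3 and 53.9 CPM in NTC and 90.2 and 64.1 CPM in untreated Sca1 libraries, a log2 fold change of -0.41 ± 0.17 (edgeR adjusted p = 0.180). Pou5f1 and Klf5 did not overlap between the groups, both lower in NTC (24.0% of all genes were so), and the other 8 overlapped. Without untreated Sca1 replicate 2 the call count was 1, Tfcp2l1, at -0.71 (edgeR adjusted p = 0.00933). With that library Tfcp2l1 was -0.33 ± 0.22. Within code 34, the one code both groups hold, 1 library against 1 gave -0.74 for Klf5, -0.70 for Tfcp2l1, -0.57 for Klf4, -0.36 for Esrrb and -0.26 for Tbx3. The smaller differences were -0.21 for Pou5f1, -0.19 for Sox2, -0.06 for Klf2, -0.02 for Zfp42 and -0.01 for Nanog.

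Knock-down against NTC cells asks what changed in Sca1 cells with less Set7. Sox2 and Klf2 rose (2 of 10; 4.25% of all genes rose and 10.1% fell), 9 of the 10 log2 fold changes were above 0, and the median of all 10 was 0.32, against 0.00 over all genes. Both knock-down libraries lay above both NTC libraries for 8 factors (31.1% of all genes did) and below them for Klf4 (32.9% did), and only Klf5 overlapped. Sox2 had 423 and 385 CPM in knock-down and 312 and 269.9 CPM in NTC libraries, a log2 fold change of 0.48 ± 0.13 (edgeR adjusted p = 0.0170). Klf2 had 273 and 222 CPM in knock-down and 197 and 168 CPM in NTC libraries, a log2 fold change of 0.44 ± 0.13 (edgeR adjusted p = 0.0286). Both calls were lost when any one of the 4 knock-down and NTC libraries was left out, so that 0 of 10 passed in each of those fits, with edgeR adjusted p-values up to 0.263 for Sox2 and 0.367 for Klf2. The share of all genes higher was then 0.78% without NTC replicate 1, 0.937% without NTC replicate 2, 1.13% without knock-down replicate 1 and 0.771% without knock-down replicate 2. The fit called 5 factors higher without mESC replicate 1 (7.19% of all genes were higher), 5 without mESC replicate 2 (7.17%), 5 without untreated Sca1 replicate 1 (4.83%) and 4 without untreated Sca1 replicate 2 (4.84%).

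The factors that did not pass had changes of 0.27 to 0.43 on the log2 scale, apart from Klf4 and Klf5. Pou5f1 had 697 and 665 CPM in knock-down and 548 and 542 CPM in NTC libraries (log2 0.32 ± 0.15, edgeR adjusted p = 0.175). Nanog had 246 and 253 CPM in knock-down and 190.0 and 206 CPM in NTC libraries (0.33 ± 0.12, edgeR adjusted p = 0.0781). Esrrb had 373 and 385 CPM in knock-down and 309 and 297 CPM in NTC libraries (0.33 ± 0.15, edgeR adjusted p = 0.179). In each of these genes the 4 libraries formed 2 separate pairs, with a gap larger than the spread within either pair. Tfcp2l1 had 223 and 216 CPM in knock-down and 161 and 165 CPM in NTC libraries (0.43 ± 0.22, edgeR adjusted p = 0.248). Zfp42 had 296 and 305 CPM in knock-down and 247 and 241 CPM in NTC libraries (0.30 ± 0.12, edgeR adjusted p = 0.113), and Tbx3 had 185 and 173 CPM in knock-down and 153 and 142 CPM in NTC libraries (0.27 ± 0.15, edgeR adjusted p = 0.269). These 3 genes too were higher in both knock-down libraries than in either NTC library.

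Klf4 and Klf5 stood outside that pattern. Klf4 had 30.5 and 32.3 CPM in knock-down and 39.9 and 42.1 CPM in NTC libraries, both knock-down libraries below both NTC libraries (log2 -0.38 ± 0.20, edgeR adjusted p = 0.246). Klf5 had 59.9 and 64.2 CPM in knock-down and 63.3 and 53.9 CPM in NTC libraries, which overlap (0.09 ± 0.17, edgeR adjusted p = 0.806). In Klf4, with 87 and 147 counts in the knock-down libraries, counting error is larger than in the other factors. Within code 12 the Klf4 difference was -0.38 and within code 34 it was -0.38. Sox2 stood at 0.44 and 0.51, Klf2 at 0.47 and 0.40 and Nanog at 0.37 and 0.30 in the same 2 codes, and Klf5 at -0.08 and 0.25.

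**Figure D3:**
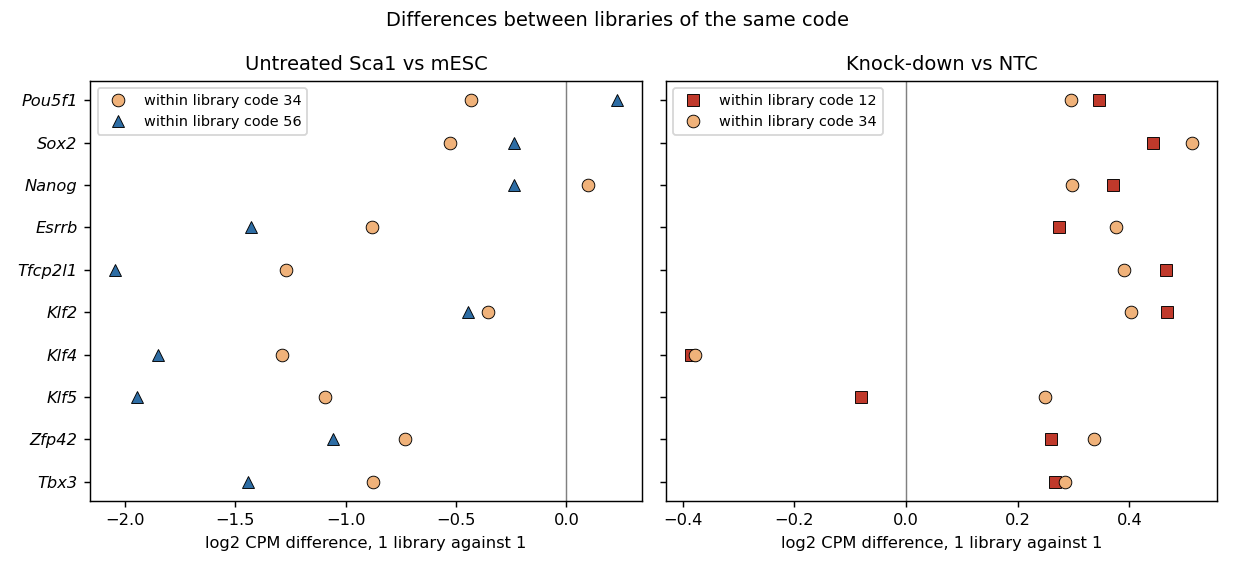
Log2 CPM difference of 1 library against 1 of the same code (horizontal axis), untreated Sca1 against mESC on the left and knock-down against NTC on the right, for each factor. On the right 8 factors lie between 0.26 and 0.51 in both codes and Klf4 at -0.38 in both, while on the left the code 56 points of Esrrb, Tfcp2l1, Klf4, Klf5, Zfp42 and Tbx3 lie farther from 0 than their code 34 points.

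The number of factors that passed varied with the libraries fitted, the scaling and the control. NTC and knock-down replicates were closer to each other than the replicates of the other groups: a chi-square of the pair's counts per degree of freedom was 2.08 in knock-down and 1.54 in NTC, against 40.3 in untreated Sca1 and 54.4 in mESC. NR_046233 was included and supplied a large part of the last 2 values. Its counts were 14316 and 301047 in the untreated Sca1 and 31112 and 585688 in the mESC libraries. The chi-square was not taken without it. A fit of the knock-down and NTC libraries alone, with 13488 genes tested, called 8 factors higher (14.7% of its genes) and Klf4 lower (18.0%), with Sox2 at 0.48 ± 0.07 (edgeR adjusted p = 9.83e-07), Pou5f1 at 0.32 ± 0.06 (7.30e-05), Nanog at 0.34 ± 0.07 (0.000190) and Klf4 at -0.38 ± 0.13 (0.0256). Scaled by library totals alone, 0 factors passed, and the split of all called genes was 259 higher and 1154 lower, against 594 and 1404 with TMM. With NR_046233 removed before totals were taken, 2 passed, and 551 of 13996 tested genes were called higher and 1415 lower. With untreated Sca1 cells as the control in place of NTC, 4 factors (Sox2, Nanog, Klf2 and Zfp42) were higher (7.34% of all genes were) and Klf4 lower (9.89%).

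Set against mESC, the NTC and knock-down groups share those mESC libraries with the untreated comparison, so the 3 comparisons are not independent. In NTC cells 7 factors fell (15.5% of all genes did), with Klf5 at -1.91 ± 0.16, Tfcp2l1 at -1.91 ± 0.22, Klf4 at -1.79 ± 0.18, Esrrb at -1.17 ± 0.15, Tbx3 at -1.05 ± 0.15, Zfp42 at -0.74 ± 0.12 and Sox2 at -0.45 ± 0.13. The Sox2 call was lost without mESC replicate 1, without NTC replicate 2 and with library totals alone. Pou5f1 was -0.38 ± 0.15 (edgeR adjusted p = 0.0550) and passed in 5 of 17 alternatives, one of them the fit without mESC replicate 2, and the split of all called genes was 2912 higher and 1209 lower with library totals alone, against 2738 and 2160.

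In knock-down cells against mESC 6 factors fell (12.4% of all genes did) and Nanog rose (13.5% did). Klf4 was -2.17 ± 0.19, Klf5 -1.83 ± 0.16, Tfcp2l1 -1.48 ± 0.22, Esrrb -0.84 ± 0.15, Tbx3 -0.77 ± 0.15 and Zfp42 -0.44 ± 0.12. Nanog was 0.36 ± 0.12 (edgeR adjusted p = 0.0377), a call lost without any one NTC or knock-down library and with library totals alone. The Zfp42 call was lost without either knock-down library and with library totals alone, and that of Tfcp2l1 without either mESC library. Mean levels in knock-down cells, as a share of the mESC mean, were 22.1% for Klf4, 28.1% for Klf5 and 35.9% for Tfcp2l1, against 95.9% for Pou5f1, 102% for Sox2, 112% for Klf2 and 128% for Nanog. Within code 34 the knock-down library against the mESC library gave -2.23 for Klf4, -1.58 for Klf5, -1.57 for Tfcp2l1, -0.42 for Zfp42, 0.39 for Nanog and -0.34 for Pou5f1. Esrrb was at -0.87, Tbx3 at -0.85, Sox2 at -0.20 and Klf2 at -0.01 in that code. Sox2 and Klf2 were thus not above mESC there. The split of all called genes was 1906 higher and 1071 lower with library totals alone, against 1884 and 1731.

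Ordered by mean level, mESC stood first for Esrrb, Tfcp2l1, Klf4, Klf5, Zfp42 and Tbx3, and none of its libraries overlapped the next group. The knock-down group came second for Esrrb, Tfcp2l1, Zfp42 and Tbx3, and overlapped the next group for Esrrb and Tfcp2l1. For Sox2, Nanog and Klf2 the knock-down group stood first, overlapping mESC for Sox2 and Klf2 and no other library for Nanog. For Pou5f1 the libraries of mESC, knock-down and untreated Sca1 overlapped in turn, and NTC was lowest.

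Some counts are shared with other rows. Sox2 lies inside the gene Sox2ot (GRCm38.p6, chr3:34649995-34652461 within chr3:34560381-34677993), and the Sox2ot row held between 8 and 59 counts more than the Sox2 row in each library, so nearly all of its counts match those of Sox2 and, with no strand stated, the 2 cannot be told apart. The row NM_001080945, which the name tables pair with no gene, held between 87.6% and 91.5% of the Nanog count in every library. A second Pou5f1 transcript row held between 58.7% and 71.4% of the row used, and the second rows of Esrrb and Tbx3 were identical to the rows used.

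Profiles across the 8 libraries were compared by the root mean square (RMS) difference of log2 CPM after centring, over 10403 genes of at least 10 CPM. Among the factors themselves, Esrrb and Tbx3 were the closest pair (0.067), then Sox2 and Klf2 (0.12), while Klf4, Klf5 and Tfcp2l1 had no factor nearer than 0.25. Outside the factors, the nearest were Tomm5 (0.044) and Itgae (0.045) for Pou5f1, Sox2ot (0.011) and Mcm10 (0.070) for Sox2, NM_001080945 (0.022) and Jade3 (0.061) for Nanog, Fbrsl1 (0.055) and Sgsm3 (0.079) for Klf2, and Sptbn4 and Atp1b1 (0.073 each) for Zfp42. For Tbx3 they were Agpat2 (0.094) and Etv4 (0.099), for Esrrb Acadm (0.095) and Mindy1 (0.099), for Klf5 Spry4 (0.14) and Lama3 (0.15), for Klf4 Cltb (0.14) and Rpl39l (0.16), and for Tfcp2l1 Ankrd33b and Cobl (0.15 each). All 8 libraries are shared by these profiles.

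Around the 10 factors, further genes of the pluripotency network moved likewise from stem cells to untreated Sca1 cells. Of 29 such genes 22 fell and 3 rose (16.8% of all genes fell and 18.7% rose), with a median of -0.67 against -0.01 over all genes, and leaving out a library gave 18 to 22 falls. Tdgf1, a Nodal co-receptor gene, had 148 ± 26.7 CPM in untreated Sca1 and 541 ± 112 CPM in mESC libraries (log2 -1.86 ± 0.15), and Tet1, a DNA demethylase gene, changed by -1.50 ± 0.13. Dppa4 changed by -1.20 ± 0.14, while Dppa3 (Stella), a gene of naive cells and germ cells, rose to 21.2 ± 2.43 CPM in untreated Sca1 against 4.17 ± 1.54 CPM in mESC libraries (2.35 ± 0.27). In the knock-down against NTC, 6 of 29 rose (4.25% of all genes did), with a median of 0.26 against 0.00 over all genes. Utf1, a chromatin-associated gene of pluripotent cells, rose to 313 ± 29.7 CPM in knock-down, against 184 ± 10.6 CPM in NTC libraries (0.76 ± 0.14, edgeR adjusted p = 0.00113). L1td1, which encodes an RNA-binding protein, was at 0.71 ± 0.13, Mybl2 at 0.50 ± 0.12 and Alpl, the alkaline phosphatase used to stain stem cell colonies, at 0.44 ± 0.11. Without any single NTC or knock-down library fewer of the 29 rose, as did fewer of all genes. Without either mESC library more of the 29 rose, as did more of all genes. In the fit of these 2 groups alone 17 rose and 1 fell, where 14.7% of all genes rose and 18.0% fell. The Mybl2 and Alpl calls were lost without any one NTC or knock-down library and with library totals alone, and that of L1td1 with untreated Sca1 cells as control. Over all 13966 genes, 542 rose and 155 fell in NTC against untreated Sca1 cells with all 8 libraries fitted. These totals apply to the full-fit counts of this list and those below, and differ when a library is left out. Without either mESC library more of all genes rose and fell, and without any one NTC or knock-down library fewer did. Without untreated Sca1 replicate 1 fewer rose and more fell, and without replicate 2 fewer rose and fell. In NTC against untreated Sca1 cells 2 of 29 rose, Alpl (0.57 ± 0.12) and Dppa3 (0.74 ± 0.20). The Alpl call was lost without either NTC library. That of Dppa3 was lost with DESeq2 and without any one NTC, knock-down or untreated Sca1 library. Without either mESC library more genes of the list rose and fell.

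LIF signals through the receptor pair Lifr and Il6st to Jak kinases and Stat3, which induces Socs3. In untreated Sca1 cells against mESC 5 of these 10 pathway genes fell and 4 rose (16.8% and 18.7% of all genes), with a median of -0.23, and without untreated Sca1 replicate 1 the rises were 2. Lifr had 58.6 ± 7.21 CPM in untreated Sca1 and 209 ± 37.5 CPM in mESC libraries (-1.82 ± 0.15), and Socs3 had 24.1 ± 10.9 CPM in untreated Sca1 and 123.5 ± 29.3 CPM in mESC libraries (-2.31 ± 0.23). Il6st changed by -0.90 ± 0.13 and Jak2 by 1.20 ± 0.23. In the knock-down against NTC, Stat3 fell to 53.6 ± 10.5 CPM, against 94.0 ± 4.06 CPM in NTC libraries (-0.83 ± 0.22), Jak1 fell by 0.69 and the kinase gene Pim3 rose by 0.58, so 2 of 10 fell and 1 rose (10.1% and 4.25% of all genes). The Jak1 call was lost without NTC replicate 1 or knock-down replicate 2, and that of Pim3 without any one NTC or knock-down library. The Stat3 call was lost without either NTC library, knock-down replicate 2 or either mESC library. Without either untreated Sca1 library more genes of the list rose and fell, and without either mESC library more rose. In NTC against untreated Sca1 cells Il6st alone passed (0.75 ± 0.13), a call lost without NTC replicate 2. Without untreated Sca1 replicate 1 or either mESC library more genes of the list were called.

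Genes of the formative and primed epiblast went mostly the other way between mESC and untreated Sca1 cells, with 8 of 12 higher and 2 lower (18.7% and 16.8% of all genes), a median of 1.32 against -0.01 over all genes, with 6 higher and 1 lower without mESC replicate 1 and 8 higher and 1 lower without untreated Sca1 replicate 1. Zic2 changed by 1.69 ± 0.18, Dnmt3a, a DNA methyltransferase gene, by 1.10 ± 0.13, Lef1 by 1.55 ± 0.22 and Etv4 by -0.99 ± 0.13. In the knock-down, Etv5 (0.39 ± 0.11) and Etv4 (0.44 ± 0.13) rose and Lef1 fell (-0.69 ± 0.19), where 4.25% and 10.1% of all genes did. Without any one NTC or knock-down library at most the Lef1 call was left. The Lef1 and Etv5 calls were lost with untreated Sca1 cells as control, and that of Lef1 also with DESeq2. In NTC against untreated Sca1 cells Fgf5 alone passed and fell (-2.55 ± 0.61), with 15.9 CPM in 1 untreated library and 4.33 CPM in the other. The call was lost with DESeq2, without untreated Sca1 replicate 2 and without any one NTC or knock-down library. Without untreated Sca1 replicate 1 or either mESC library more genes of the list fell. Of 10 genes that act in the exit from naive pluripotency, Folr1 (-0.91 ± 0.13), Rbpj (-1.33 ± 0.30) and Fnip2 (-0.82 ± 0.23) fell in untreated Sca1 cells against mESC (16.8% of all genes did), with 1 fall left without untreated Sca1 replicate 1, and 2 rises and 3 falls without mESC replicate 1. The Fnip2 call was lost without mESC replicate 2, and that of Rbpj without either untreated Sca1 library. In NTC against untreated Sca1 cells Folr1 (0.53) rose and Zfp706 (-0.60) fell. Both calls were lost without any one NTC or knock-down library or untreated Sca1 replicate 1, and that of Folr1 also without untreated Sca1 replicate 2. Without either mESC library more genes of the list fell. Zfp706, a gene of that list, rose to 233 ± 4.18 CPM in knock-down, against 119 ± 4.97 CPM in NTC libraries (0.97 ± 0.15, edgeR adjusted p = 0.000246), a call lost with untreated Sca1 cells as control. Zfp706 was the only gene of the 10 called in the knock-down (4.25% of all genes rose and 10.1% fell). Without either mESC library more genes of the list rose, as did more of all genes. Jarid2, also of that list, held 2666 and 2588 CPM in the code 56 libraries of untreated Sca1 and mESC, against 352 to 570.2 CPM elsewhere.

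Of 14 other genes of the Krüppel-like family 11 were tested. In untreated Sca1 cells against mESC 6 of the 11 fell (16.8% of all genes did) and Klf6 rose (1.05 ± 0.16; 18.7% of all genes rose), with a median of -0.53 against -0.01 over all genes. The lowest change was that of Klf12 (-1.28 ± 0.32), named after its values were seen, which was -0.58 and not called without mESC replicate 2 and also not called without untreated Sca1 replicate 1. Without mESC replicate 2 there were 2 rises and 5 falls. Klf8 changed by -0.95 ± 0.21, Klf15 by -0.81 ± 0.17 and Klf9 by -0.53 ± 0.11. Klf15 rose in NTC against untreated Sca1 cells (1.05 ± 0.17), a call lost without NTC replicate 1. Klf10 rose in the knock-down (0.56 ± 0.17), a call lost without any one NTC or knock-down library, with DESeq2 and with untreated Sca1 cells as control.

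**Figure D4:**
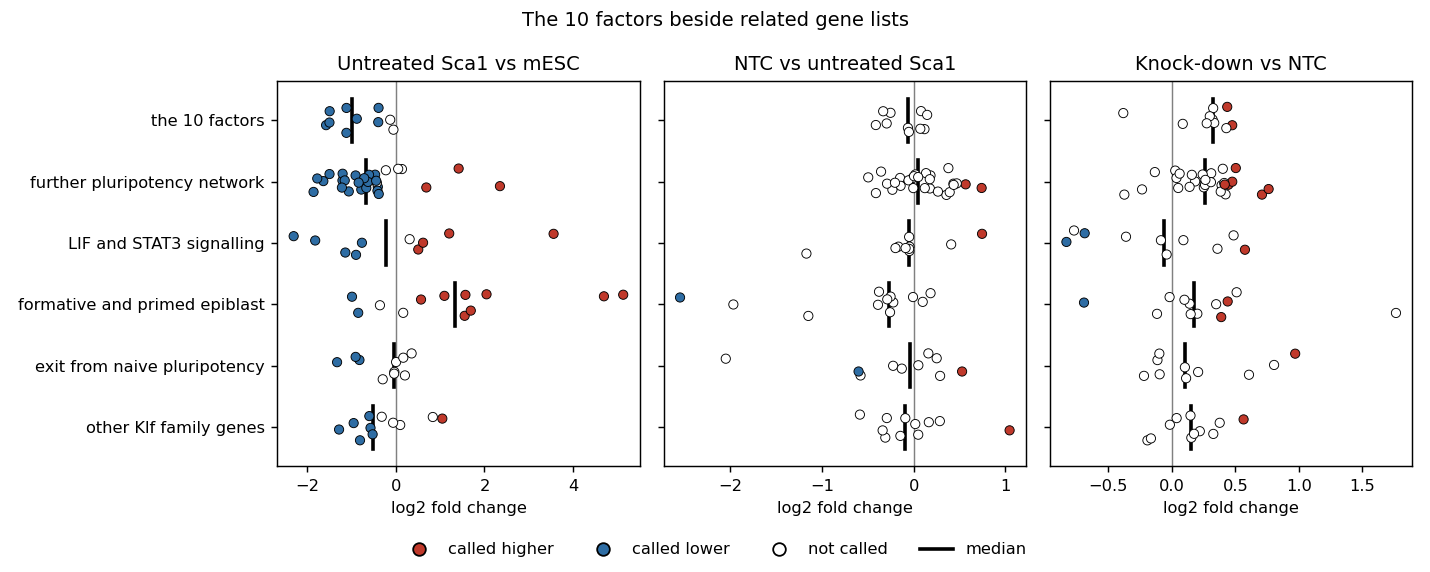
Log2 fold change of each tested gene (points) in the 10 factors and 5 related lists, in 3 comparisons with separate horizontal scales; filled points passed an adjusted p of 0.05 and bars are medians. In the knock-down the median of the 10 factors is 0.32 and that of the further pluripotency network 0.26.

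Markers of other cell types moved with these results, and their part in the results was not tested. In the knock-down against NTC 4.25% of all genes rose and 10.1% fell, which are the shares for each list below. Summed over 10 genes of mesenchyme, fibroblasts and smooth muscle, levels were 1710 to 1958 CPM in knock-down, 5181 to 5370 CPM in NTC, 3021 to 3495 CPM in untreated Sca1 and 1980 to 2188 CPM in mESC libraries. Most of the knock-down and mESC sums was Fn1, with 1647 and 1384 CPM in knock-down and 1385 and 1698 CPM in mESC libraries. Vim added 567 and 466 CPM in mESC libraries, so these sums say little about the other genes of the list. In the knock-down 9 of the 10 fell (10.1% of all genes did), with Col3a1, a collagen gene, at 6.67 ± 0.516 CPM in knock-down and 658 ± 2.12 CPM in NTC libraries, and Postn was at 0 in knock-down and mESC libraries. Against mESC, 6 of the 10 were higher in the knock-down and 1 lower (13.5% and 12.4% of all genes), with a median of 2.41. In untreated Sca1 cells against mESC 8 rose and 1 fell (18.7% and 16.8% of all genes). Leaving out a library gave 7 to 9 rises there, and the fall was called only in the fit without mESC replicate 1. Over the 29 further pluripotency genes the sums were 6561 to 6776 CPM in knock-down, 5183 to 5300 CPM in NTC, 4988 to 5137 CPM in untreated Sca1 and 7380 to 7392 CPM in mESC libraries. Neural progenitor genes (8 genes, 5 tested, Olig2 at 0 in every library) summed to 76.5 to 85.1 CPM in knock-down, 243 to 274 CPM in NTC, 276 to 289 CPM in untreated Sca1 and 19.8 to 32.7 CPM in mESC libraries, and 2 fell in the knock-down (Nes and Sox11, the call of Sox11 lost without knock-down replicate 2). Trophectoderm genes (9, Hand1 at 0 in mESC libraries) summed to 451 to 458 CPM in knock-down, 446 to 447 CPM in NTC, 417 to 449 CPM in untreated Sca1 and 88.3 to 111 CPM in mESC libraries. Of these, 6 were higher in untreated Sca1 cells than in mESC (18.7% of all genes were), Krt18 and Cdx2 among them. In the knock-down Tfap2c and Eomes rose and Hand1 fell, and all of these calls were lost without NTC replicate 1 or knock-down replicate 2. The Eomes and Hand1 calls were also lost with untreated Sca1 cells as control. Eomes had 22.5 ± 6.08 CPM in knock-down, 10.9 ± 1.66 CPM in NTC and 24.7 ± 10.0 CPM in untreated Sca1 libraries.

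Primitive and visceral endoderm genes (9) summed to 331 to 349 CPM in knock-down, 401.3 to 403 CPM in NTC, 256 to 338 CPM in untreated Sca1 and 605 to 704 CPM in mESC libraries. Of these, 5 fell in untreated Sca1 cells against mESC (16.8% of all genes did). In the knock-down Amn rose and Pdgfra and Gata4 fell. The Gata4 call was lost without any one NTC or knock-down library, and that of Pdgfra with untreated Sca1 cells as control. Pdgfra had 103 ± 1.95 CPM in knock-down, 169 ± 7.26 CPM in NTC and 84.5 ± 1.07 CPM in untreated Sca1 libraries. In NTC against untreated Sca1 cells 2 of the 9 rose, Pdgfra (1.00 ± 0.12) and Amn (1.30 ± 0.24), where 542 of 13966 genes did. That Amn call was lost without NTC replicate 1. Endothelial genes (7, with 5 tested, and Emcn at 0 in knock-down and mESC libraries) summed to 115 to 133 CPM in knock-down, 219 to 227 CPM in NTC, 101 to 119.7 CPM in untreated Sca1 and 181 to 193 CPM in mESC libraries. Most of each sum was Pecam1 and Flt1, which differed in opposite directions between NTC and mESC. Pecam1 had 82.0 and 85.1 CPM in NTC and 157 and 169 CPM in mESC libraries. Flt1 had 134 and 121 CPM in NTC and 10.5 and 7.48 CPM in mESC libraries, and it fell in the knock-down (-2.91). Germ cell genes (6) summed to 123 to 125 CPM in knock-down, 80.6 to 82.9 CPM in NTC, 79.1 to 79.5 CPM in untreated Sca1 and 174 to 243 CPM in mESC libraries. Most of the mESC sum was Dazl, with 114 and 175 CPM in mESC and 22.1 and 23.3 CPM in knock-down libraries. These sums therefore say little about the other genes of the list. Against mESC, 3 of the 6 were higher in the knock-down and 2 lower (13.5% and 12.4% of all genes). Prdm1 and Dnd1 rose in the knock-down, with 0 calls without NTC replicate 1 or knock-down replicate 2.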

How the data were processed

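Poly(A) RNA libraries were read on an Illumina Genome Analyzer IIx, per the labels' protocols. The authors deposited whole-number read counts for 29614 RefSeq transcripts, with no scaling as far as the values show. BWA 0.5.9, SAMtools 0.1.17 and edgeR 0.19 are listed, with no roles, in the submitters' processing notes. Genome build, counter and strandedness were not given in the sources used here, and reads of overlapping genes may be counted in several rows.

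A RefSeq table named 28981 rows and GENCODE metadata 177, and 456 kept their accession. The row with the highest total stood for each of 23483 genes. Counts were filtered with filterByExpr, scaled with TMM and fitted in edgeR 4.0.16 (R 4.3.3, limma 3.58.1): all 8 libraries entered 1 fit, which left 4 residual degrees of freedom at a common dispersion of 0.0133. Robust quasi-likelihood F tests gave the p-values, and each SE is the absolute log2 fold change divided by the root of F. Log2 CPM used a prior count of 2, and levels per kilobase used GENCODE transcript lengths. The code was tested on simulated counts.

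The 10 factors and 11 lists (124 genes) were chosen with earlier results of these data known. Named are all factors, up to 4 called genes with the smallest p per list and comparison, the 2 nearest profiles per factor, Setd7 and Ly6a. Jarid2, Klf12, NR_046233 and the rows that share counts with a factor were singled out after their values were seen. Alternatives were RLE factors, library totals, DESeq2 1.42.0, no filter, a 5 CPM filter, the compared groups only, summed rows, the library number as replicate block, untreated cells as control, and each library left out. Library totals without NR_046233 were chosen after seeing the data.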

Additional observations from a re-analysis of the deposited data

How the results depend on the processing

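Over 10 factors and 5 comparisons, 771 of 860 recomputed log2 fold changes kept direction and side of the threshold, 33 gained a call, 32 lost one and 24 turned direction. Those that turned were of factors not called with either value. Left-out libraries gave these ranges of log2 fold change. In untreated Sca1 against mESC they were -0.38 to 0.18 for Pou5f1 and -0.23 to 0.10 for Nanog. In NTC against untreated Sca1 they were -0.17 to 0.037 for Sox2, -0.067 to 0.26 for Nanog, -0.34 to 0.31 for Esrrb, -0.71 to 0.22 for Tfcp2l1, -0.00304 to 0.23 for Klf2, -0.61 to 0.20 for Klf4, -0.00606 to 0.33 for Zfp42 and -0.20 to 0.44 for Tbx3. In knock-down against NTC the range was -0.027 to 0.21 for Klf5, in NTC against mESC -0.031 to 0.085 for Nanog, and in knock-down against mESC -0.31 to 0.24 for Pou5f1 and -0.14 to 0.20 for Sox2. Counts of factors called ranged over left-out libraries between 6 and 9 in untreated Sca1 against mESC, 0 and 1 in NTC against untreated Sca1, 0 and 5 in knock-down against NTC, 6 and 8 in NTC against mESC, and 5 and 7 in knock-down against mESC. Where 1 library was left in a group, it was assumed to vary like the other groups. Library totals alone gave 0 calls in knock-down against NTC, and turned Sox2 (0.031) and Esrrb (0.023) in NTC against untreated Sca1 and Pou5f1 (0.026) in knock-down against mESC. They moved the median of all genes to 0.10 in NTC against untreated Sca1 and to 0.12 in NTC against mESC. The split of all called genes in NTC against untreated Sca1 was then 493 higher and 18 lower, against 542 and 155. The fit of the compared groups alone gave 9 calls in knock-down against NTC, and 1982 genes higher and 2434 lower, against 594 and 1404 over all groups. Setting the knock-down against untreated Sca1 cells gave 5 calls, and Klf5 at -0.33. The numbers in the sample descriptions, which follow the library codes, were used as a replicate block: it gave 5 calls in knock-down against NTC (1054 of all genes were higher, against 594 with no block), and turned Klf2 (-0.055) and Tbx3 (-0.11) in NTC against untreated Sca1, Nanog (-0.00774) in NTC against mESC, and Sox2 (-0.15) and Klf2 (-0.019) in knock-down against mESC. Deviations from group means of libraries with 1 number correlated by 0.33 between mESC and untreated Sca1 and by 0.18 between NTC and knock-down. Between the other groups, the replicate 1 libraries, whose numbers differ, correlated by -0.067 to -0.013. With 2 libraries per group, replicate 2 deviates by the same size the other way. Libraries that share number 2 across those groups therefore correlated by the same small sizes with the sign turned. No label states what the number marks. The cause of these changes was not tested.

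Groups of 2 libraries limit every comparison. NTC and knock-down hold no code 56 library and untreated Sca1 and mESC no code 12 library, so between those groups only code 34 gives a value within 1 code. Klf4, with 81 to 672 counts per library, has the lowest depth of the 10, and Sox2 cannot be told from Sox2ot.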
